A study of Mus musculus with 14 samples.

Results

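The non-gene regions that begin close to the start of a gene were described in mouse macrophages depleted of Wdr82. The deposited annotation lists 1107 regions outside the gene models, and 203 of them were taken by place alone: they overlapped no gene span on either strand and had an edge within 5 kb of the start of a gene. Of the other regions, 441 overlapped a gene, 184 lay near a gene end and 279 were intergenic. The position rule used no read count. The regions themselves, however, had been found by the authors with SICER, a program that finds enriched stretches, in a comparison that the annotation's source field writes as sh against LMP in UT (untreated) cells. What LMP stands for is not given in the sources used here. The direction of their change is therefore not independent evidence.

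Bone marrow cells of FVB/Hsd mice were grown into macrophages in L929-conditioned medium, infected with retroviruses carrying a short hairpin RNA, selected with puromycin and taken on day 7. The groups compared were 2 libraries of cells with a scrambled hairpin (scrambled 1 and scrambled 2) and 2 libraries with a hairpin against Wdr82, 1 under sh1137 and 1 under sh830. All 4 held ribosomal RNA-depleted total RNA of untreated cells, and all came from infected and selected cells, so no uninfected control was among them. The labels name neither animals nor separate cultures, so p-values measure the spread between these libraries, which may be technical. The 10 samples of 4-thiouridine-labelled RNA, some of which had a Menin hairpin or lipopolysaccharide, were not analysed here.

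RNA polymerase II initiates in both directions from many mammalian promoters, and most of the transcripts that run away from the gene are terminated early and degraded by the nuclear exosome. Wdr82 is a WD-repeat protein shared by the SET1 histone methyltransferase complexes and the PTW/PP1 phosphatase complex, and together with the zinc-finger protein Zc3h4 it takes part in early termination of such non-coding transcription. A region just upstream of a start can hold an upstream antisense transcript, an enhancer transcript or RNA that runs on from a neighbouring gene. The regions carry no strand in the deposited files, so these kinds of transcript cannot be told apart here.

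The bases directly before 5 of the gene starts are shown, as examples of the promoters beside the regions. At Gpnmb, Jun and Lyz1 the region's nearest edge lay closer to the annotated start than the stretch is long, and at Ip6k3 and Rap2b it lay farther away, at 291 and 1930 bp. Each is the 250 bases before the RefSeq start, 5′ to 3′ on the strand of the gene, from the GRCm38.p6 assembly, whose coordinates differ from the mm9 coordinates used for the regions. Capitals mark exact matches, on either strand, to one of 7 motifs: the PU.1 core (GAGGAAG), the core promoter's TATA box (TATAAA), the poly(A) signal (AATAAA), the 5′ splice site (GGTAAG), AP-1 (TGANTCA), C/EBP (TTGCNNAA) and the Sp1 GC box (GGGCGG). The first 4 belong to genes whose upstream region rose, and the last to a gene whose region did not pass the test.
Gpnmb: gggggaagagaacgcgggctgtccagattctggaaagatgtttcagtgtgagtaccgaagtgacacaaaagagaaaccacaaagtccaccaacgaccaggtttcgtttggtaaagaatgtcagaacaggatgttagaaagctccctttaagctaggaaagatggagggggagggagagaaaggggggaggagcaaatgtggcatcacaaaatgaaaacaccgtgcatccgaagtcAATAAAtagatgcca
Lyz1: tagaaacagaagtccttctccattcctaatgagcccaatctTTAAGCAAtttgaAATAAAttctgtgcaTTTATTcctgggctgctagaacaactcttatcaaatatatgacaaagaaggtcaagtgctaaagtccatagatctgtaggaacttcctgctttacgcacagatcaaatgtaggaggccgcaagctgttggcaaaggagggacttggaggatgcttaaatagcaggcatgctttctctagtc
Ip6k3: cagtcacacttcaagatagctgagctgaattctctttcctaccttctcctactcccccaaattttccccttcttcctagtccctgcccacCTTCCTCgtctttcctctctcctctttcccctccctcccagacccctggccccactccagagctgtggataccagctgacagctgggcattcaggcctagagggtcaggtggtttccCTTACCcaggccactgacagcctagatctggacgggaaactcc
Jun: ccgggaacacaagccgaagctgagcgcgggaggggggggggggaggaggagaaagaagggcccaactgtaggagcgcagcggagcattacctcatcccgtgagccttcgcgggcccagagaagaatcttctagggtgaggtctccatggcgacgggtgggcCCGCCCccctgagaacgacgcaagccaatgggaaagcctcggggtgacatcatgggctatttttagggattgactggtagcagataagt
Rap2b: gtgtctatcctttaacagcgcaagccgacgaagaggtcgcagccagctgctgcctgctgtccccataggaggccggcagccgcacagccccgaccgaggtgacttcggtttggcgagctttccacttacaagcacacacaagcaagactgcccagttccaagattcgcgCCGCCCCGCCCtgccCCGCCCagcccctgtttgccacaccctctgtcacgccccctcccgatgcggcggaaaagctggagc
The Gpnmb stretch matched only the poly(A) signal, on the gene's own strand, and the Lyz1 stretch matched it on both strands beside 1 C/EBP motif. Those of Jun and Rap2b matched only the GC box. Ip6k3 matched the PU.1 core and the 5′ splice site, both on the opposite strand.

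Gene exons held 40074419 and 42635790 counts in scrambled 1 and 2, 34787556 under sh1137 and 43372731 under sh830. Introns took 40.4% of exon plus intron counts in scrambled 1 and 44.2% under sh1137, but 14.6% in scrambled 2 and 15.2% under sh830. The edgeR fit used for calls therefore held a library term for this split beside the group term. The labels give no batch, and this split is a measured property of the libraries. Levels are counts per 1000000 of the library's scaled gene total (CPM). Wdr82 itself, on chromosome 9, had 100 and 144 CPM in scrambled cells against 25.1 under sh1137 and 40.7 under sh830, a log2 fold change of -1.91 ± 0.09 (SE, n = 2 libraries per group; edgeR quasi-likelihood test, adjusted p = 0.00216). Both libraries labelled as knockdown were below both scrambled libraries. The 8 macrophage markers summed to between 8598 and 15166 CPM, those of T, B, dendritic, mast and erythroid cells and of neutrophils to at most 12.5 CPM per list in any library. The 4 fibroblast and stromal markers summed to 0.196 and 11.6 CPM in scrambled cells and to 1.12 and 59.8 CPM under sh1137 and sh830, mostly Col1a1, and Col3a1 was at 0 in scrambled 1. Of these lists, 1 gene each of the T cell, dendritic and fibroblast lists rose and 2 of the 8 macrophage genes fell. Among all genes tested 6.06% were called higher and 7.79% lower. The part of the cells of these lists in the results was not tested.

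Reads over the 203 regions were few beside those of genes, and were more numerous with both hairpins. The regions together took 37515 of the gene plus region counts in scrambled 1 and 26947 in scrambled 2, and 110937 under sh1137 and 52982 under sh830. These were shares of 0.0930% (95% Wilson interval 0.0921 to 0.0939), 0.0630% (0.0622 to 0.0637), 0.311% (0.309 to 0.313) and 0.121% (0.120 to 0.122). The intervals cover counting error only. Both knockdown shares were above both scrambled shares. The means were 0.0780% ± 0.0212 and 0.216% ± 0.134 (SD, n = 2 each), a ratio of 2.77, and the pair of sh1137 and scrambled 1 gave 3.34, that of sh830 and scrambled 2 gave 1.92. A two-sided exact permutation test gave p = 0.333, the smallest that 2 libraries against 2 allow. Without sh1137 the ratio was 1.55. The median region had 1.57 and 1.18 CPM in scrambled cells, 6.16 under sh1137 and 2.82 under sh830. Per kb of region the medians were 0.291, 0.191, 0.993 and 0.432 CPM. The sh1137 library was thus the highest on each of these measures.

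A total of 198 regions passed the filter on low counts. Of these, 110 rose (adjusted p under 0.05 in the edgeR fit with the library term), 0 fell, and 88 did not pass the threshold. Before adjustment, 154 had p under 0.05 in the upward direction and 0 in the downward one. Among all 14954 genes and regions tested 9.53% were called higher and 7.23% lower, against 6.06% of genes and 54.6% of all regions called higher. The share among regions near starts, 55.6%, was thus close to that of all regions. The median log2 fold change was 1.51, with the central 50% between 0.97 and 2.15, beside 1.37 over all regions tested and -0.01 over all genes tested. By place, the medians were 2.11 for intergenic regions, 1.21 for regions near gene ends and 1.09 for regions overlapping genes, with 180 of 268, 80 of 176 and 214 of 428 called higher. No test of the difference between these classes was made. Only the regions Gna15 TES and Sirt4 TSS had a fitted change below 0. The edgeR fit with the group term alone called 0 regions (0.0% of all features), although before adjustment 83 near starts had p under 0.05 upward and 0 downward. DESeq2 called 104 with the library term (8.33% of all features higher and 8.84% lower, 53.1% of regions higher) and 52 with the group term alone (2.78% of features higher and 0.187% lower, 25.7% of regions higher), and 100 of the 110 were called by DESeq2 with the library term too. The median was 1.52 with the group term alone. It was 0.84 with that term and sh1137 left out, where sh830 was set against both scrambled libraries without regard to the intron split.

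Both knockdown libraries lay above both scrambled libraries for 142 of the 203 regions, and for 0 were both below. The groups overlapped for 61. Over all features tested the first pattern held for 19.1%, over all regions for 63.8% and over genes for 15.7%. Taken pair by pair, the median log2 ratio of sh1137 over scrambled 1 was 1.82, and that of sh830 over scrambled 2 was 1.19. The ratio was above 0 for 197 of 198 regions in the first pair and 186 of 198 in the second. Scrambled 1 itself exceeded scrambled 2 by a median log2 ratio of 0.49, and sh1137 exceeded sh830 by 1.23. Across regions the changes of the pairs had a Pearson correlation of 0.61 and a Spearman correlation of 0.65 (n = 198 regions, which share libraries and so are not independent replicates). The plot of pair changes shows most regions in the upper right part and below the line of equal change.

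**Figure D1:**
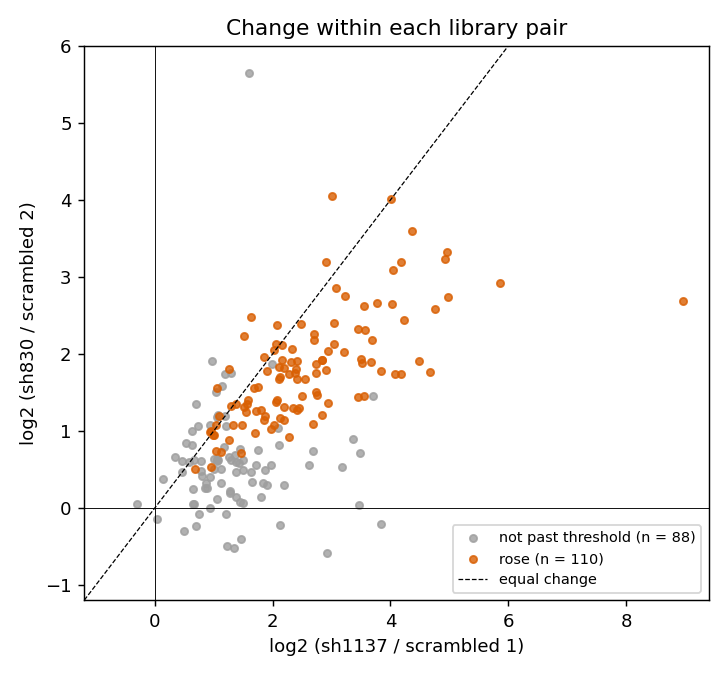
Each point is 1 of the 198 tested regions. The x axis gives the log2 ratio of sh1137 over scrambled 1 and the y axis that of sh830 over scrambled 2, both from scaled counts with 0.5 added. Orange points are the 110 regions that rose, grey points the 88 that did not pass the threshold, and the dashed line marks equal change. Of the 198, 197 lie right of 0 and 186 above 0. The point at the far right is Gpnmb TSS, with 0 counts in scrambled 1, and the highest one is Carns1 TSS, with 0 counts in scrambled 2.

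The regions are named as in the deposited annotation, by a gene and its start (TSS) or end (TES). Among the 12 largest rises, 3 lay beside genes of the macrophage's lysosomal and innate immune repertoire. The Gpnmb TSS region (chr6:48981500-48986499, mm9) lies 18 bp upstream of Gpnmb, which encodes a lysosomal transmembrane glycoprotein. It had 0 and 5 counts in scrambled cells, 229 under sh1137 and 37 under sh830. That was 0 and 0.125 CPM against 6.11 and 0.877 CPM, a log2 fold change of 5.33 ± 1.23 (SE, adjusted p = 0.0433). It had the largest fitted change and the largest error of the 12, and DESeq2 with the library term gave an adjusted p of 0.113. The Lyz1 TSS region (chr10:116730000-116742999) lies 76 bp upstream of the lysozyme gene Lyz1, and the start of Lyz2, whose annotated span overlaps that of Lyz1, is within 5 kb of the same edge. Its levels were 0.489 and 0.778 CPM in scrambled cells and 15.2 and 7.42 CPM under sh1137 and sh830, a log2 fold change of 4.07 ± 0.45 (adjusted p = 0.0102). Lyz1 and Lyz2 are near-identical copies, so reads of their exons may have been shared. The Tlr7 TSS region (chrX:163768500-163771499) begins 31 bp from the start of the endosomal receptor for single-stranded RNA. It had 6 and 20 counts in scrambled cells against 188 and 145, and rose by 3.73 ± 0.60 (adjusted p = 0.0204). For Lyz1 TSS and Tlr7 TSS the lower knockdown library was well above the higher scrambled one.

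Another 3 of the 12 lay beside genes of cell survival and growth. The Bcl2l1 TSS region (chr2:152657500-152664499) lies 82 bp upstream of Bcl2l1, the gene of the anti-apoptotic protein Bcl-xL. Its counts were 38 and 45 in scrambled cells, 1099 under sh1137 and 482 under sh830, or 0.929, 1.13, 29.3 and 11.4 CPM. The scrambled libraries hardly differed, and the log2 fold change was 4.16 ± 0.42 (adjusted p = 0.00815). The Ier3 TSS 2 region (chr17:35950500-35955499) lies 3159 bp upstream of the immediate-early gene Ier3, with the start of Flot1 farther along on the same side. It had 0.489 and 0.125 CPM against 4.00 and 2.27 CPM, and rose by 3.46 ± 0.45 (adjusted p = 0.0134). The Cdkn2d TSS region (chr9:123832500-123835999) had 4 and 10 counts against 239 and 84, a rise of 4.36 ± 0.73 (adjusted p = 0.0220). The annotation places Cdkn2d, a cyclin-dependent kinase inhibitor, at 2 places of chromosome 9, and the gene's own counts cannot be assigned to the copy beside this region. Its promoter is not shown for the same reason.

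The remaining 6 lay beside genes of signalling, adhesion and trafficking. Ip6k3 TSS (chr17:27305000-27309999), 291 bp from an inositol hexakisphosphate kinase gene, had 0.220 and 0.100 CPM against 4.75 and 1.35 CPM, a rise of 4.15 ± 0.45 (adjusted p = 0.00994). Thbs1 TSS 4 (chr2:117916500-117937499) extends 21.0 kb upstream of the gene of the matrix glycoprotein thrombospondin. It had 1.03 and 0.251 CPM in scrambled cells, 16.8 under sh1137 and 4.24 under sh830. Its log2 fold change of 4.04 ± 0.26 had the smallest error of the 12 (adjusted p = 0.00425), and its change was 4.01 in each pair. Thbs1 exons, like the fibroblast, macrophage and mast cell marker sums, were highest under sh830 (177 CPM), whereas the region was highest under sh1137. Ndrg1 TSS rose by 3.90 ± 0.56 (adjusted p = 0.0166), with 14.9 CPM under sh1137 and 2.01 under sh830 against 0.538 and 0.326. Rpn1 TSS, whose closest start is that of the late-endosomal GTPase gene Rab7, rose by 3.88 ± 0.49 (adjusted p = 0.0131). The 12 were named from regions whose groups did not overlap, so that the knockdown libraries lie above the scrambled ones in the plot of named rises is set by that choice. In all 12 sh1137 was above sh830. Without sh1137 and with the group term alone, the changes of Ndrg1 TSS and Wdfy4 TSS were 2.20 and 2.36.

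**Figure D2:**
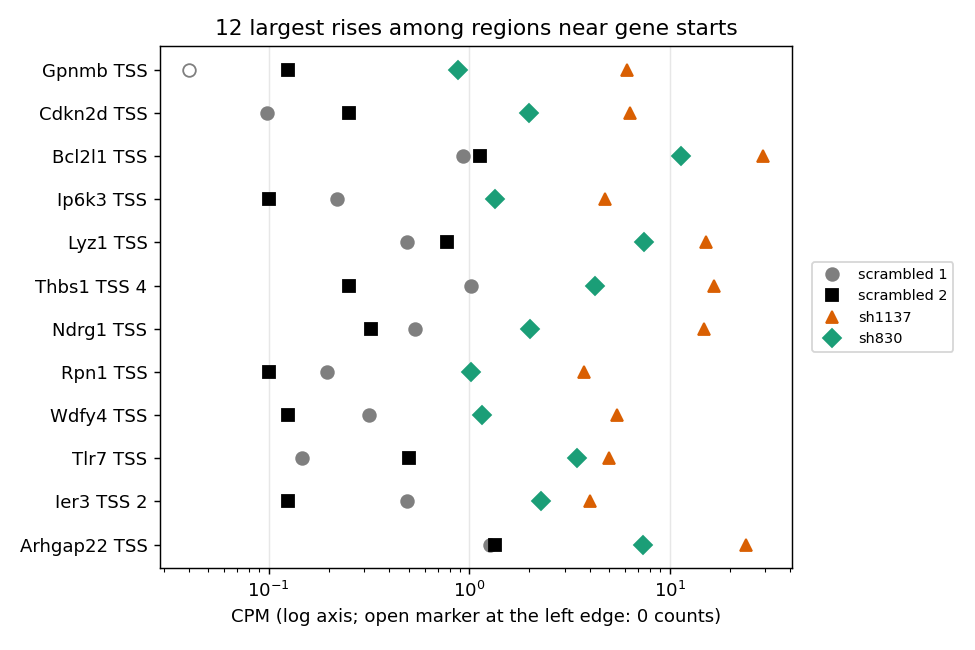
CPM of the 12 regions with the largest rises, on a log axis, with 1 marker per library (grey circle scrambled 1, black square scrambled 2, orange triangle sh1137, green diamond sh830). The open circle at the left edge is the 0 counts of Gpnmb TSS in scrambled 1. The regions were chosen for groups that do not overlap. In each row the triangle lies right of the diamond.

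The last members of the 12 share 1 stretch of chromosome 14, where Wdfy4 and Arhgap22 start in opposite directions. Wdfy4 encodes a protein of antigen cross-presentation. Between the starts lie Wdfy4 TSS 2 (chr14:33998500-34001499), Wdfy4 TSS (chr14:34003000-34009499) and Arhgap22 TSS (chr14:34013000-34026999). Arhgap22 TSS had 1.27 and 1.35 CPM in scrambled cells and 24.1 and 7.39 CPM under sh1137 and sh830, a rise of 3.36 ± 0.46 (adjusted p = 0.0149). Wdfy4 TSS had 0.318 and 0.125 against 5.44 and 1.16 CPM, a rise of 3.75 ± 0.45 (adjusted p = 0.0116). Wdfy4 TSS 2, the region closest to the Wdfy4 start, had 4.79 and 4.54 against 10.5 and 6.42 CPM, a log2 change of 0.82 ± 0.24 that did not pass (adjusted p = 0.0750). The highest scrambled level of the 3 was thus at the Wdfy4 start. The exons of both genes did not pass the test (0.17 for Wdfy4 and -0.31 for Arhgap22, adjusted p = 0.303 and 0.0679).

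Of the 6 regions with the highest scrambled level, 4 rose. Jun TSS 2 (chr4:94719000-94780999) extends 62.0 kb from 87 bp upstream of Jun, a subunit of the AP-1 transcription factor. It had 36.1 and 7.60 CPM in scrambled cells and 187 and 25.7 CPM under sh1137 and sh830. The groups overlapped, since sh830 was below scrambled 1, but the rise within pairs was 2.37 and 1.76, and the fitted rise was 2.09 ± 0.16 (adjusted p = 0.00560). With the group term alone it was 0.22 without sh1137 and 3.80 without scrambled 1. Nt5dc2 TSS, between the starts of Nt5dc2 and Smim4, rose by 1.07 ± 0.12 (adjusted p = 0.0113) from 30.9 and 20.3 to 73.8 and 37.4 CPM. Its change without sh1137 and with the group term alone was 0.54. Nacc2 TSS had 29.1 and 25.1 against 45.6 and 29.8 CPM and did not pass (0.45 ± 0.13, adjusted p = 0.0718).

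The other 3, like Jun TSS 2, differed more between the libraries of 1 group than between hairpin and control. Phxr4 TES (77.0 kb) and Phxr4 TSS flank the short non-coding gene Phxr4 on chromosome 9. Phxr4 TES had 190 and 30.2 CPM in scrambled cells and 375 and 58.3 CPM under sh1137 and sh830, so scrambled 1 was above sh830. Within pairs both regions rose by close to 1 on the log2 scale, and the fitted rises were 0.97 ± 0.08 and 0.96 ± 0.10 (adjusted p = 0.00637 and 0.00944). With the group term alone and sh1137 left out they turned to -0.92 each. Sirt4 TSS (chr5:115939000-115942499), 4507 bp from the gene of a mitochondrial sirtuin, was split the other way. It had 24.5 CPM in scrambled 1 and 19.8 under sh1137, but 205 in scrambled 2 and 213 under sh830, and did not pass (-0.12 ± 0.11, adjusted p = 0.510).

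Together with Sirt4 TSS, the least changed regions with at least 1 CPM were Gna15 TES, Optn TES and Rap2b TSS. Gna15 TES, beside the start of the sphingosine 1-phosphate receptor gene S1pr4, had 68, 74, 64 and 71 counts in the 4 libraries, and a log2 change of -0.05 ± 0.33 (adjusted p = 0.926). Optn TES, beside the replication gene Mcm10, had 2.52 and 2.66 against 3.55 and 2.16 CPM (0.10 ± 0.33, adjusted p = 0.857). Rap2b TSS, upstream of a Ras-like GTPase gene, had 9.22 and 8.78 CPM against 14.9 and 7.44 (0.23 ± 0.26, adjusted p = 0.568). A missed threshold does not show that these regions were unaffected. For Gna15 TES, Optn TES and Rap2b TSS the errors leave room for changes either way.

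The 5 regions outside the test had few reads. Disc1 TSS and Snx9 TSS 2 had 0 counts in all 4 libraries, where 3 counts, the limit that a count of 0 allows, correspond to between 0.0711 and 0.0801 CPM. Olfr1425 TES and Olfr1425 TSS, on either side of an olfactory receptor gene, had 0 and 1 and 2 and 0 counts in scrambled cells, 71 and 50 under sh1137 and 10 and 8 under sh830. Rnaset2b TSS 2 had 0, 3, 5 and 0 counts.

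The regions were 1.5 to 77.0 kb long (median 6000 bp) and covered 1754.5 kb in all. All their bounds were multiples of 500 bp. The closest edge lay 3 to 4905 bp from a start, with a median of 250 bp, and 139 regions were closer than 500 bp. Of the 203, 196 were upstream of the near gene (the gene with the closest start) and 7 lay past the end of a short near gene. Just inside the 5 kb limit were Wdfy4 TSS, at 4748 bp, and Hmha1 TES, at 4905 bp, with log2 changes of 3.75 and 1.28. Just outside it were Afmid TES, at 5052 bp, and Tekt3 TSS, at 5162 bp, with 1.56 and 2.45. The plot of region extents shows most bars reaching to within 1 kb of the start.

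**Figure D3:**
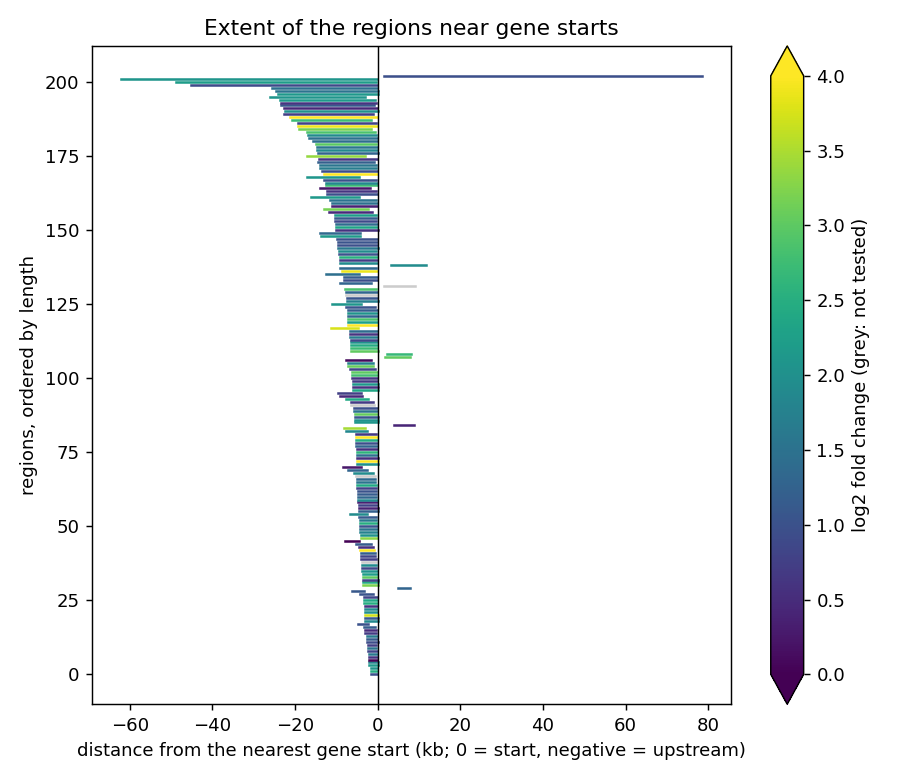
Each bar is 1 of the 203 regions, ordered by length. The x axis is the distance in kb from the closest gene start, negative upstream, with the 7 regions past the end of a short near gene drawn on the right. Colour gives the log2 fold change of knockdown over scrambled, and grey marks the 5 regions not tested. The long bar on the right is Phxr4 TES (77.0 kb) and the longest on the left is Jun TSS 2 (62.0 kb).

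Calls and median changes were then counted by place and length. Of the regions closer than 500 bp, 78 of 137 tested rose (median log2 fold change 1.52), and of those at 500 bp to 5 kb, 32 of 61 (1.36). Beside near genes on the plus strand 56 of 99 rose, beside those on the minus strand 54 of 99. Regions that also had a gene end within 5 kb of an edge rose in 37 of 65 cases (1.31), the others in 73 of 133 (1.55). Among the 24 named for a gene end, 9 of 23 tested rose (1.08), and among the 179 named for a start, 101 of 175 (1.55). By length, 33 of 83 regions of up to 5 kb rose, 39 of 68 over 5 to 10 kb and 38 of 47 over 10 kb, with medians of 1.29, 1.55 and 1.55. The regions that rose and those that did not pass had close median levels in scrambled cells, 1.36 and 1.41 CPM. Their median total counts over the 4 libraries, knockdown reads included, were 711.5 and 339.5, and their median lengths 7000 and 5000 bp. The calls by length were not adjusted for the number of reads. The Spearman correlation of the log2 change was 0.11 with length, -0.09 with distance and -0.49 with the scrambled level, which is also the base of the change (n = 198 regions).

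In 8 regions gene starts lay within 5 kb of either edge, as at a divergent gene pair, and all 8 rose, by 0.75 to 2.59, where 55.6% of regions near starts did. Their median change of 1.38 was below the 1.51 of all regions near starts. The 8 were picked out by geometry after the counts were known. Mir2861 TSS rose most, from 2.32 and 2.86 CPM to 19.2 and 12.6 CPM (2.59 ± 0.27, adjusted p = 0.00944). Map3k8 TSS, beside the gene of the Tpl2 kinase of toll-like receptor signalling, had 11.1 and 8.40 CPM against 62.8 and 23.0 CPM (1.99 ± 0.26, adjusted p = 0.0134). Chd3 TSS rose least, from 11.2 and 7.83 to 21.8 and 11.4 CPM. The remaining ones were Zfp574 TSS, Nt5dc2 TSS, Pcbp2 TSS, Rps14 TSS (closest start Ndst1) and Tmem66 TSS (closest start Saraf). The scrambled levels of Mir2861 TSS, Map3k8 TSS and Chd3 TSS were above the median of all regions near starts that rose, 1.36 CPM. These calls were not adjusted for the number of reads.

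Gene lists chosen with earlier results of these data known were counted through the near genes. Transcription factors and chromatin regulators were beside 14 regions, of which 10 rose, with a median log2 change of 1.90. Over all regions near starts 55.6% rose and over all regions 54.6%, which are the shares to read this and the next lists against. Klf6 TSS rose most, by 2.81 ± 0.59 (adjusted p = 0.0345), from 0.538 and 1.86 CPM to 9.31 and 6.23 CPM. Bhlhe41 TSS rose by 2.48 ± 0.32 and was higher under sh830 (5.55 CPM) than under sh1137 (3.58 CPM). Gm13476 TES 4, which ends 85 bp from Zeb2, rose by 2.44 ± 0.56, and Id3 TSS, beside a dominant-negative helix-loop-helix factor, by 2.36 ± 0.46. Mafg TSS, 1 of the shortest regions at 1.5 kb, rose by 0.97 ± 0.18 from 5.65 and 5.57 to 10.9 and 11.1 CPM. The 4 that did not pass were Fli1 TSS, Klf4 TSS, Mef2d TSS and Ncoa3 TSS 4, with changes of 0.81 to 1.21.

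Of the 3 regions beside cytokine and chemokine genes or their receptors, Cxcl1 TSS and Cx3cr1 TSS rose, by 3.01 ± 0.40 and 2.00 ± 0.37. Il1r2 TSS had 1.88 and 0.753 against 4.80 and 0.521 CPM and did not pass (adjusted p = 0.501). Both regions beside surface and pattern recognition receptors, P2ry6 TSS and Tlr7 TSS, rose. Of the 5 beside cytoskeletal genes, Vim TSS (1.67 ± 0.15) and Dock2 TSS (1.87 ± 0.30) rose, while Actb TSS, Cdc42 TSS and Rhob TSS did not pass, with changes of 1.32 to 1.87. The region beside the translation factor gene Eif4e had 1.25 and 0.978 against 5.44 and 1.73 CPM and did not pass (1.5 ± 0.42, adjusted p = 0.0673).

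The list of Wdr82 complexes, early termination and nuclear RNA decay had 31 tested genes, of which 2 rose and 5 fell, with a median log2 change of -0.25, beside 6.06% and 7.79% of all genes. Among the 5 was Wdr82 itself, the target of the hairpins, and the others were Cpsf3, Exosc2, Hcfc1 and Ints11, which fell by 0.46 to 0.55. The genes that rose were Ppp1r10, the nuclear targeting subunit of the PTW/PP1 complex (1.85 ± 0.09), and Zc3h4. Only Zc3h4 had a region near its start. Zc3h4 TSS, 46 bp from the start, had 2.59 and 1.78 CPM in scrambled cells and 11.9 and 4.43 CPM under sh1137 and sh830, a rise of 1.77 ± 0.30 (adjusted p = 0.0225). Zc3h4 exons had 110 and 81.7 against 218 and 118 CPM, a rise of 0.76 ± 0.13 (adjusted p = 0.0220). Both region and gene thus rose at the locus of this partner of Wdr82.

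The 203 regions had 198 near genes, 196 of them protein coding. In the scrambled libraries the near genes were well expressed: 141 of the 194 tested (72.7%) were above the median of all genes tested, and their own median was 21.3 CPM per kb of exon beside 7.41 for all genes. Their exon counts as a group were centred on no change, with a median log2 fold change of 0.02. Of the 194, 28 rose and 18 fell, 14.4% and 9.28%, beside 6.06% and 7.79% of all genes tested. The edgeR fit with the group term alone called 0 either way, with 15 up and 6 down before adjustment. DESeq2 with that term called 6 and 2 (1.01% and 0.202% of all genes), and with the library term 30 and 32 (4.88% and 9.52%).

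The largest rises of near genes were of genes with little expression in scrambled cells. Ip6k3 had 0.147 and 0.100 CPM against 3.42 and 2.73 CPM, a log2 fold change of 4.61 ± 0.44 (adjusted p = 0.00714). Acta1, the skeletal muscle actin gene, had 0.147 and 0.100 against 4.30 and 0.711 CPM (4.06 ± 0.63, adjusted p = 0.0191). The muscle-expressed Txlnb had 3.11 and 3.39 against 18.3 and 21.1 CPM (2.60 ± 0.16, adjusted p = 0.00399). The vomeronasal receptor gene Vmn2r96 had 0.514 and 0.577 against 4.59 and 1.59 CPM (2.33 ± 0.52, adjusted p = 0.0399), and belongs to a multigene family whose reads may be shared. The groups did not overlap for any of these 4 genes. Without sh1137 and with the group term alone, the change was 2.49 for Acta1 and 1.53 for Vmn2r96.

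The largest falls were of leukocyte surface genes and a tubulin. Ly9 and Cd48, both of the SLAM receptor family, fell by 1.60 ± 0.09 and 0.98 ± 0.09 (adjusted p = 0.00309 and 0.00691). Ly9 had 117 and 124 CPM in scrambled cells and 36.8 and 43.0 CPM with the hairpins. The fractalkine receptor gene Cx3cr1 had 262 and 240 against 61.2 and 129 CPM, and fell by 1.49 ± 0.28 (adjusted p = 0.0279). Without sh1137 and with the group term alone its change was -0.97. Tuba1a fell by 0.77 ± 0.08 (adjusted p = 0.0100), although its groups overlapped: 57.9 and 150 against 34.9 and 85 CPM. With the group term alone and scrambled 2 left out its change was 0.07.

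Beside 6 falling genes the region rose. Of the 110 regions that rose, 23 had a near gene that rose, 6 a near gene that fell, 80 a near gene that did not pass and 1 a near gene outside the test. The 6 were at Ly9, Cx3cr1, P2ry6, Hmga1, Tubb2a and the histone gene H4c14. Ly9 TSS had 1.52 and 2.31 against 10.3 and 6.37 CPM, a rise of 2.1 ± 0.37 (adjusted p = 0.0244). Cx3cr1 TSS, 100 bp from the start, had 34 and 14 counts against 135 and 54. Hmga1 TSS had 3.52 and 2.11 against 17.6 and 7.87 CPM (2.12 ± 0.21, adjusted p = 0.00842), while Hmga1, an architectural chromatin protein gene, fell by 0.55. Of the 88 regions that did not pass, 5 had a near gene that rose and 12 a near gene that fell. Among the 194 near genes tested 28 rose and 18 fell, and among all genes 6.06% and 7.79%. A falling near gene was thus less frequent beside the regions that rose than beside the others, a difference that was not tested.

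The difference between a region and its near gene was tested as an interaction of group and feature type over 985 regions. Of 195 regions near starts tested, 103 had a higher log2 change than the near gene and 0 a lower one. The median difference was 1.36 on the log2 scale. Before adjustment, 1 had p under 0.05 downward. Of the 103, 79 were also called as rising in the edgeR fit used for calls. Over all regions tested 47.9% were called higher and 0.609% lower. The regions, unlike the near genes, had been found in the sh against LMP comparison, so this direction is not independent evidence. The largest differences were at Gpnmb (4.82 ± 0.90, adjusted p = 1.25e-06) and Bcl2l1 (4.49 ± 0.65, adjusted p = 3.64e-10), apart from Cdkn2d, whose gene counts cannot be assigned. At Ly9 the difference was 3.71 ± 0.53 (adjusted p = 2.06e-10) and at Cx3cr1 3.56 ± 0.61 (adjusted p = 1.45e-07). These p-values rest on a spread moderated across regions, in a fit of the same 4 libraries with 1 residual degree of freedom. The Gpnmb region alone had an adjusted p of 0.0433 in the edgeR fit used for calls. Without the feature type by library term 0 were called either way, with 44 up and 0 down before adjustment. Region and gene rose together at Ip6k3, Txlnb and Vmn2r96, which were named for the rise of the gene. Their differences were -0.48 ± 1.19, -0.48 ± 0.51 and -0.19 ± 0.55, none past the threshold. Region and gene also rose together at Ier3, where the difference was 2.24 ± 0.59 (adjusted p = 0.000676). At Acta1 the region past the gene's end, Acta1 TES, changed less than the gene (-1.93 ± 0.88, adjusted p = 0.0561). Across 195 regions the region's change and the near gene's exon change had a Pearson correlation of 0.21 and a Spearman correlation of 0.17. Regions of 1 gene share its value, and all share libraries.

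**Figure D4:**
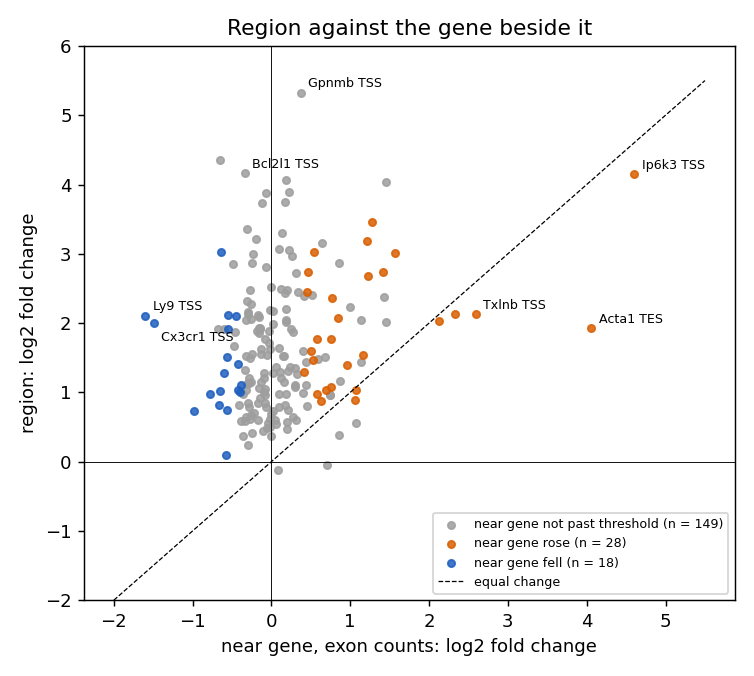
The log2 fold change of each region (y axis) against that of its near gene's exons (x axis), for 195 regions. Blue points have a near gene that fell (n = 18), orange points one that rose (n = 28) and grey points one that did not pass (n = 149). The dashed line marks equal change. Most points lie above it in a vertical band around 0 on the x axis, and Ip6k3, Txlnb and Acta1 lie below it at the right.

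Introns, which report unspliced RNA, were measured for 181 near genes. Of these 24 rose and 10 fell, beside 5.97% and 3.93% of all genes tested, and the median log2 change was 0.06. With the group term alone 0 were called either way, and before adjustment 14 had p under 0.05 upward and 2 downward. Lyz1 introns rose by 4.30 ± 0.73 (adjusted p = 0.0195), from 0.0422 and 0.245 to 1.49 and 3.51 CPM of intron counts. They held only 71 counts over all libraries, and the Lyz1 span overlaps that of its near-identical copy Lyz2. Lyz1 exons had 778 and 983 against 612 and 1600 CPM and did not pass (0.18, adjusted p = 0.658). Bcl2l1 introns fell by 0.47 ± 0.10 (adjusted p = 0.0417) below a region that rose. Nacc2 introns rose by 0.76 ± 0.15 (adjusted p = 0.0297). The Spearman correlation of a region's change with the intron change was 0.19 (n = 181 regions).

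Read density in the regions was then set against that in the introns of the near gene, both per kb and from the same library, for 179 regions whose near gene had at least 100 intron counts. The median ratio of region to intron density was 0.115 in scrambled 1, 0.204 in scrambled 2, 0.368 under sh1137 and 0.496 under sh830. The region was the denser in 20, 30, 34 and 46 of the 179. The knockdown libraries were above both scrambled ones on this measure, and here sh830 rather than sh1137 was the highest. The intron-poor libraries, scrambled 2 and sh830, had the higher ratio within each group. Beside exons the regions remained sparse: the median region had 1.49% and 0.947% of its near gene's exon density in scrambled cells and 5.78% and 2.44% under sh1137 and sh830.

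**Figure D5:**
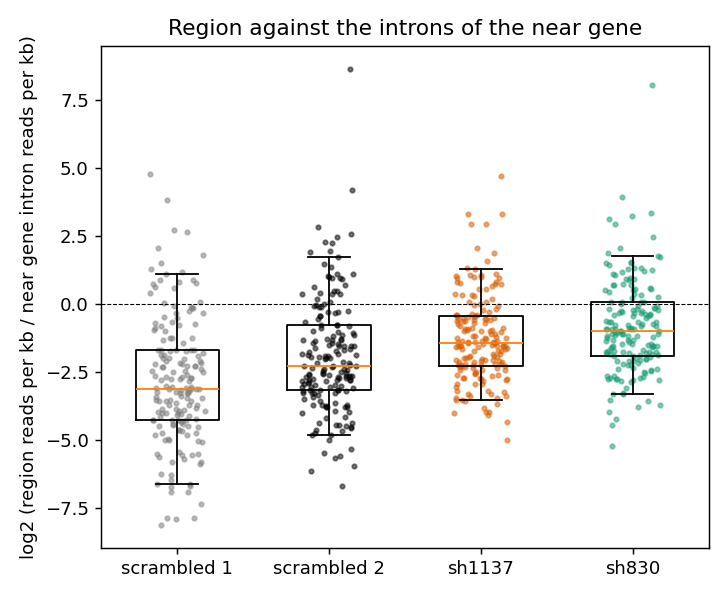
Log2 ratio of reads per kb in a region to reads per kb in the introns of its near gene, 1 point per region, for up to 177 of 179 regions in each library (2 to 4 with a ratio of 0 are not drawn). Boxes show the quartiles with the median as a line, whiskers the 5th to 95th percentiles, and the dashed line equal density. The medians rise from -3.11 and -2.27 in scrambled cells to -1.44 under sh1137 and -0.996 under sh830.

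Promoter sequence was matched for 150 of the 198 near genes, and 123 had a single entry. In their 250 bases before the start, 55.3% had a CpG observed over expected ratio above 0.6, beside 65.8% of 8702 tested genes with a single entry, and 60.2% held a GC box, beside 58.2%. The TATA box was in 12.2% beside 7.19%, and the PU.1 core, the motif of a lineage-determining factor of macrophages, in 13.8% beside 10.8%. Among near genes of regions that rose the PU.1 core was in 13 of 63 promoters, and among those of regions that did not pass in 3 of 58. The poly(A) signal was in 5 of 63 and 7 of 58, and the 5′ splice site in 5 of 63 and 2 of 58. The AP-1 motif was in 4 of 63 and 3 of 58 and the C/EBP motif in 3 of 63 and 3 of 58. The TATA box was in 10 of 63 and 5 of 58, and the GC box in 42 of 63 and 31 of 58. A CpG ratio above 0.6 was found in 31 of 63 and 35 of 58. These are counts of letters in short windows, made without a test.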

How the data were processed

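For 4 of 14 samples the authors deposited count files, with unnormalized reads over exon intervals of genes and regions and over introns of genes. That these are raw counts follows from their whole numbers and differing totals. The deposited annotation gives mm9 coordinates for 21761 genes, of which 21615 had a symbol, and other values such as region bounds. SICER, TopHat 1.3.1 and, at version 2.1.1, Cufflinks and Cuffdiff are listed in the submitters' processing notes, with mm9 as the build. The counting tool and its strand setting are not given in the sources used here, so reads of overlapping or antisense transcripts may have been shared.

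A single edgeR 4.0.16 model (R 4.3.3) held genes and regions: filterByExpr, TMM factors from genes, group and library terms, quasi-likelihood F-tests and Benjamini-Hochberg adjustment at 0.05. This leaves 1 residual degree of freedom. SE is the log2 fold change divided by the square root of F. Introns were fitted separately. DESeq2 1.42.0, other terms, filters, windows and left-out libraries were alternatives. Scripts were tested on simulated counts, drawn with the library split built in and 200 features changed. The edgeR fit with the library term recovered 154 at 2-fold and 197 at 4-fold, with 10 and 8 false calls. With the group term alone it recovered 0 at either size. A count of 0 from that fit therefore does not show that nothing changed. Near-identical libraries were checked for and none was found.

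The regions, gene lists and library term were chosen with earlier results of these data known. Named regions were the 12 largest rises (past the threshold, groups not overlapping, at least 0.5 CPM on average, 1 per near gene, no unnamed models, snoRNAs or miRNAs), the 6 with the highest scrambled level and the 4 least changed with at least 1 CPM. Named near genes were the 4 largest rises and 4 largest falls. Zc3h4 and members of lists, of the divergent set or of counts of 5 or fewer were named after their values were seen.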

Additional observations from a re-analysis of the deposited data

Results flagged for a closer look

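In 3 regions the library pairs moved in opposite directions, each beyond its exact 95% counting interval. The difference between the pairs was not tested, since each pair is 1 library against 1.

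Zfp395 TSS had 73 counts in scrambled 1 against 513 under sh1137, and 88 in scrambled 2 against 62 under sh830. The ratio of scaled levels was 7.67 (5.99 to 9.94) for sh1137 over scrambled 1 and 0.666 (0.473 to 0.932) for sh830 over scrambled 2. Rap2b TSS had ratios of 1.62 (1.42 to 1.85) and 0.847 (0.725 to 0.990). Sirt4 TSS had ratios of 0.809 (0.735 to 0.891) and 1.04 (1.01 to 1.07).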

How the results depend on the processing

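The 110 regions called near starts became 0 with the group term alone, 5 with the crossed split (Arhgap22, Bcl2l1, Gpnmb, Lyz1 and Slc39a13 TSS) and 52 in DESeq2 with the group term alone. Leaving out regions that have a gene end within 5 kb makes the tested set smaller. It left 73 called, with a median change of 1.55 beside 1.51. With 1 library left out and the group term alone the count was 1 to 65: 1 without scrambled 2, 5 without sh1137, 20 without scrambled 1 and 65 without sh830. There the lone library of a group is assumed to vary like the other group. The median change was 0.84 to 1.94 and the ratio of shares 1.55 to 3.99, lowest in both cases without sh1137. The ratio's runs without a library were chosen after seeing the data. Of all 198 regions tested, 196 had a change above 0 in the fit with the library term and 197 with the group term alone. With the group term alone it was 194 without scrambled 2 and 163 without sh1137. Those runs lack the library term as well as a library.

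Near genes that rose (28) became 0 with the group term alone, 0 with the crossed split and 6 in DESeq2 with the group term alone, and 0 to 4 with a library left out. Those that fell (18) became 0, 0 and 2 (Cx3cr1 and Ly9), 32 in DESeq2 with the library term, and 0 to 2. With the crossed split 7 near genes went up and 2 down before adjustment (p under 0.05). Introns that rose (24) and fell (10) became 0 and 0 with the group term alone, and 0 to 9 and 0 to 1 with a library left out (3 rose without scrambled 1). The 103 regions with a higher change than the near gene became 0 without the feature type by library term. They became 0 to 38 with a library left out as well. The 0 lower ones became 1, Acta1 TES, when the gene in the region's name was taken. With the group term alone, Phxr4 TES and Phxr4 TSS turned to -0.92 each without sh1137, and Tuba1a to 0.073 without scrambled 2. The cause was not tested.

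By the labels' numbers, no paired analysis was possible because the knockdown libraries carry no replicate number. The library term acts as a block of 2 pairs all the same, sh1137 with scrambled 1 and sh830 with scrambled 2, which were formed from the intron share and not from the labels. Counts differed least within these pairs (chi-square per degree of freedom 245.4 and 223.6, and 533 to 849 between other libraries). Spans per transcript were not run, since the annotation lists genes only.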
